A study of Mus musculus with 16 samples.

Results

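The genes described here encode the proteins of the cytosolic ribosome, followed through a treadmill study of the mouse kidney. A gene was a member if its GENCODE M21 symbol was Rpl, Rps or Rplp with a number and at most a short suffix, or Rpsa, and if it was annotated as protein-coding. By this rule 83 of the 55414 genes in the table were members, 51 of the large and 32 of the small subunit, on 19 chromosomes, with 4 on X (Rpl10, Rps4x, Rpl36a and Rpl39). Symbols decide membership, so ribosome genes such as Fau, Rack1 and Rps27rt fell outside it and are described apart.

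RNA came from frozen kidney cortex of male wild-type C57BL/6J mice, an inbred laboratory strain, and was sequenced as strand-marked polyadenylated RNA. The sedentary group was set against 3 groups that were forced to run on a treadmill for 40 minutes at 70% of capacity, over 1 day (labelled 24 h), 1 week (1 wk) or 2 weeks (2 wk), with 4 libraries in each of the 4 groups. The labels leave it unclear whether the 24 h mice ran within 1 day or were killed 24 h after a run. A letter in the titles differs between the sedentary and all exercised libraries without explanation, so whatever it stands for and exercise cannot be told apart. The labels do not say that each library came from its own animal, and p-values therefore speak only of how much these libraries vary, in part perhaps for technical reasons.

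A ribosome consists of a large subunit, which joins amino acids, and a small subunit, which reads the mRNA, and each holds 1 copy of most of its proteins. Because the proteins are needed in equal numbers, cells adjust most of their mRNAs together. In mammals this adjustment is largely translational: the mRNAs start with a run of pyrimidines at the 5′ end (a TOP motif), through which mTORC1 and LARP1 control whether they are translated or stored, a step that a measurement of mRNA does not see. The kidney cortex is mostly proximal tubule, a tissue rich in mitochondria that makes much transport protein.

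Rpl22l1, Rpl12 and Rpl41 had the smallest p of all members in the test over all groups. The start-site sequences of 5 members, these 3 with Rps27 and Rps6, are shown, since a run of pyrimidines there is described as common among these genes. Each is 75 bases long, 50 before and 25 from the RefSeq start onward, on the gene's own strand of GRCm38.p6, and the capitals mark uninterrupted runs of 5 or more C or T that begin no earlier than 25 bases before the start. In order, the stretches are chr3:90213624-90213698 (minus strand), chr4:86857343-86857417 (minus), chr3:28805458-28805532 (plus), chr2:32961662-32961736 (plus) and chr10:128549144-128549218 (minus).
Rps27: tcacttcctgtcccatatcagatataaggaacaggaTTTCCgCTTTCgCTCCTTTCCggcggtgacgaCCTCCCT
Rps6: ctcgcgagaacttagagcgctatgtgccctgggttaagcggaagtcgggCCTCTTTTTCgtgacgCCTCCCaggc
Rpl22l1: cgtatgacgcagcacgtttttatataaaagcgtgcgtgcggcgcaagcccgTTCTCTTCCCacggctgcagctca
Rpl12: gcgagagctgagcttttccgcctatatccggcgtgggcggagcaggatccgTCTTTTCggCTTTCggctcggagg
Rpl41: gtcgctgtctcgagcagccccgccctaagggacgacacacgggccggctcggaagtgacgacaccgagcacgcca
Rps6, Rpl22l1 and Rpl12 each have a run at or next to the start, Rps27 has several around it, and the Rpl41 stretch has no run of that length at the RefSeq start used here. Rpl3l, not printed, had a longest run of 5 in window 1 and no run of 5 or more in window 2, by the same rule.

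RefSeq held windows of 250 bases before to 50 after the start for 63 of the 83 members, 75 windows in all, against 32851 for all genes. A run of 7 or more pyrimidines within 25 bases of the start was present in 41 of the 75 windows (54.7%) and in 29.3% of all windows. A C at the start itself followed by 4 or more C or T, on the gene's strand, was found in 13 (17.3%) and in 2.51% of all. Searched on both strands, the letters CCGGAAG, the core bound by ETS factors such as GABP, were in 27 windows (36%) against 8.86% of all, GGGCGG, the SP1 letters, in 45 (60%) against 35.7%, and AAGATGGC, the YY1 letters, in 8 (10.7%) against 2.75%. TATAAA was in 7 (9.33%) against 13.6% of all. No motif contains another, but the pyrimidine features can coincide with each other, and the reverse complement of CCGGAAG holds a short pyrimidine run. These are matches of letters, not binding sites, and several members have more than 1 window.

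Library totals ran from 39766260 to 66852397 counts. Of the members, 81 passed the filter on low counts and were tested among 16126 genes, and 79 had at least 1000 counts in every library, so that counting error is small beside the spread between libraries. Markers of the kidney cortex were present in every library, in counts per 1000000 (CPM), among them Slc34a1 of the proximal tubule (at least 5900 CPM) and Umod of the thick ascending limb (at least 2000). Markers of leukocytes summed to 4.37 to 11.3 CPM. Mitochondrially encoded transcripts took 3.61 to 4.52% of the counts in sedentary and 2.16 to 2.71% in 24 h libraries. They took 2.66 to 4.09% at 1 wk and 2.99 to 4.23% at 2 wk, both overlapping sedentary.

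No ribosomal protein gene differed between any groups past the threshold, but the genes moved together from library to library, most widely among the exercised libraries. At 1 wk 80 of the 81 tested members had a higher mean than in sedentary kidneys (51.1% of all genes had), by a median of 0.115 on the log2 scale (1.083-fold). At 24 h 66 were higher (49% of all genes), by a median of 0.0635 (1.045-fold), and at 2 wk 29 (52.1% of all genes), with a median of -0.0411 (0.9719-fold). Single libraries moved these medians, to 0.0153 without 1 wk replicate 3, to 0.246 without 1 wk replicate 4, to 0.0199 without 24 h replicate 3, and at 2 wk to 0.0403 without replicate 2 and -0.106 without replicate 1.

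The sum of all members made up 2.51, 2.43, 2.58 and 2.39% of the counts in sedentary replicates 1 to 4. In the 24 h libraries the share was 2.47, 2.47, 2.89 and 2.64%. At 1 wk it was 2.64, 2.77, 3.14 and 2.03%, and at 2 wk 2.54, 2.02, 2.58 and 2.40%. Every exercised group overlapped the sedentary libraries, and the mean shares of 2.48 ± 0.0840% (SD, n = 4), 2.62 ± 0.198%, 2.65 ± 0.462% and 2.39 ± 0.254% in the 4 groups in that order differed from sedentary by less than the SD of each exercised group. The highest and the second lowest library of all, 1 wk replicates 3 and 4, belonged to the same group. In bulk tissue a smaller share of a cell type and less RNA per cell cannot be told apart.

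**Figure D1:**
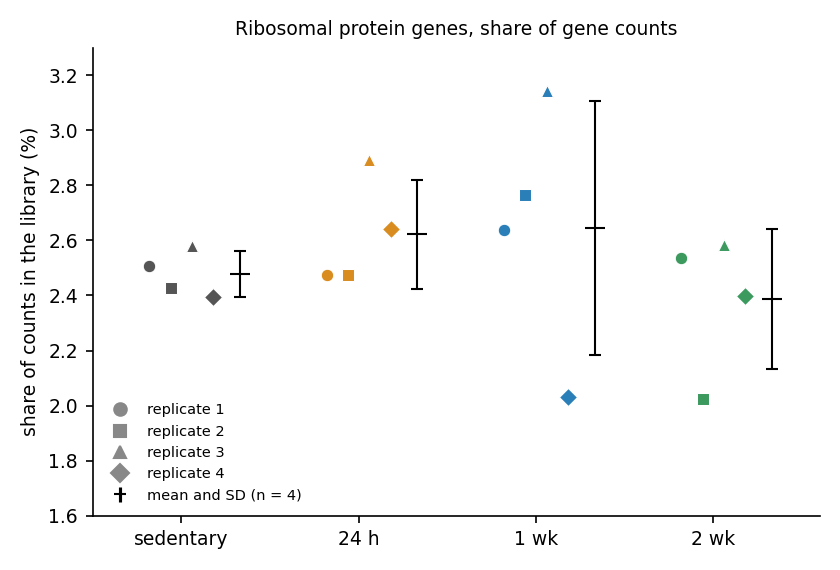
Share of the gene counts of each library (y axis, percent; axis does not start at 0) that fell on the 83 ribosomal protein genes, by group (x axis), with 1 point per library and the mean and SD (n = 4) beside them. The sedentary libraries lie between 2.39 and 2.58%, and the exercised ones spread from 2.02 to 3.14%.

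Gene by gene, the same libraries stood out. On the log2 CPM scale, where a deviation is measured from a gene's mean over the sedentary libraries, the median member lay between -0.045 and 0.022 in the sedentary libraries. It was -0.058, -0.009, 0.226 and 0.118 in 24 h replicates 1 to 4, 0.144, 0.178, 0.402 and -0.313 at 1 wk and 0.162, -0.305, 0.023 and -0.060 at 2 wk. Of the 12 exercised libraries, 7 lay above the highest sedentary median and 4 below the lowest.

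The extreme libraries involved nearly all members. In 1 wk replicate 3, 80 members exceeded their own sedentary range and none lay below it, and in 24 h replicate 3 there were 74 above and none below. In 1 wk replicate 4, 78 lay below the sedentary range and 1 above, and in 2 wk replicate 2, 74 below and none above. The same counts were not made over all genes, so they do not show what is particular to the members. The large subunit kept 57.1 to 58.6% of all member counts across the 16 libraries, so that its balance with the small subunit varied far less than the sum. Its part was highest in 1 wk replicate 4 and 2 wk replicate 2 (58.6 and 58.5%). It was lowest in 24 h replicate 3 and 1 wk replicate 3 (57.1 and 57.2%), against 57.5 to 57.8% in sedentary libraries.

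**Figure D2:**
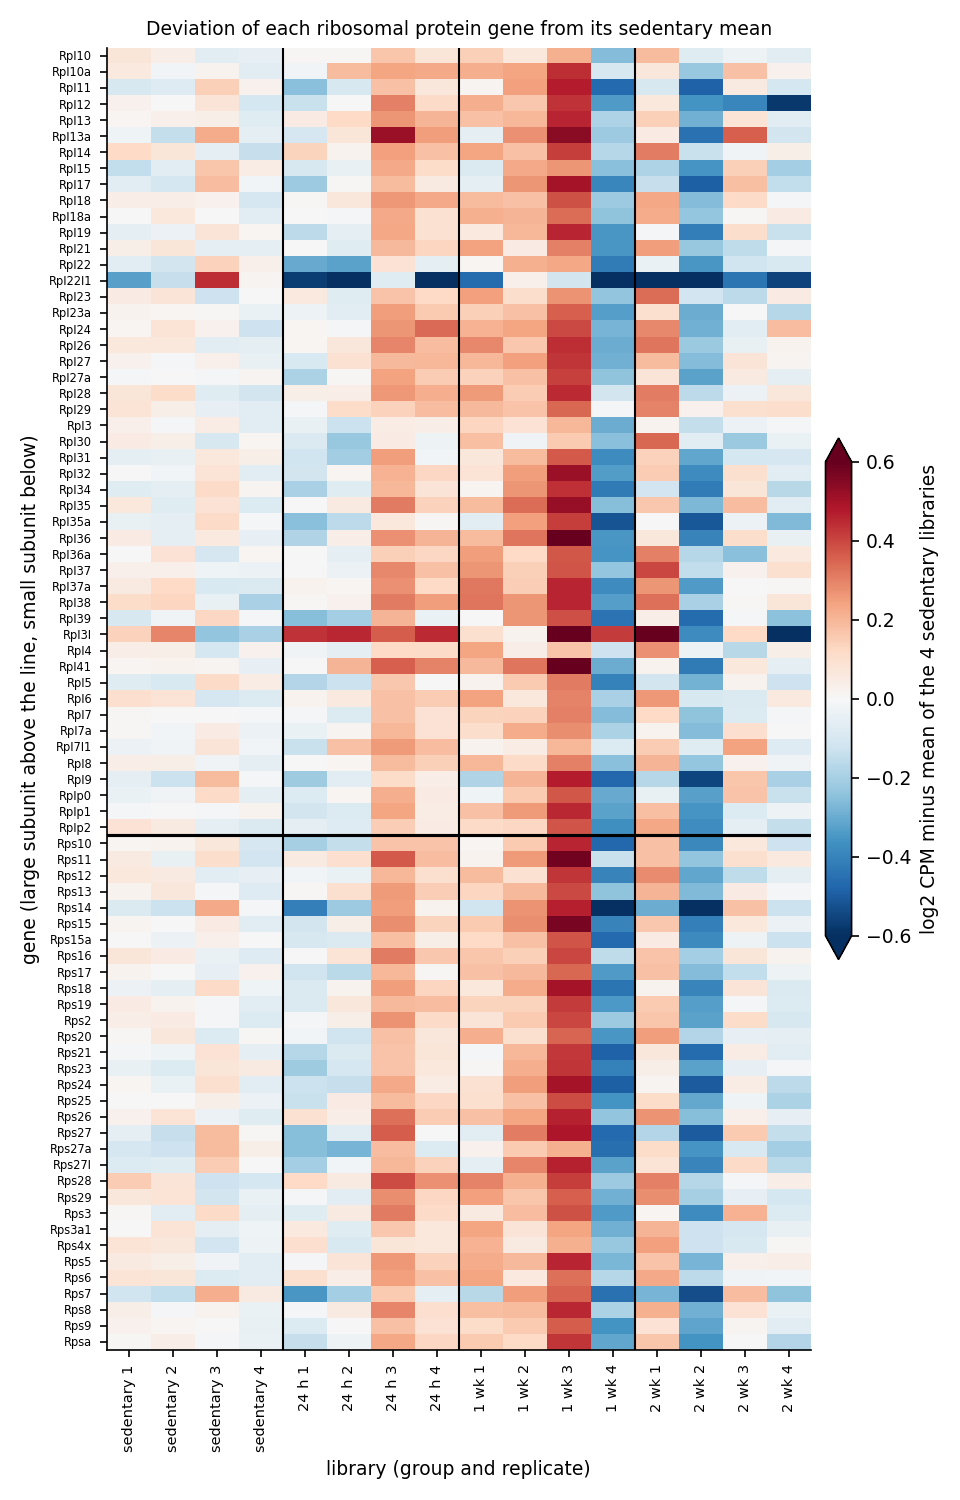
Deviation of log2 CPM from the sedentary mean (colour, scale ending at 0.6 either way) for the 81 tested members (rows, large subunit above the black line, small subunit below) in the 16 libraries (columns). Nearly all members are high in 1 wk replicate 3 and low in 1 wk replicate 4 and 2 wk replicate 2. Some other columns are mixed, such as 2 wk replicate 1, with 55 members above and 10 below their sedentary range. Rpl22l1 and Rpl3l stand apart from their neighbours.

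By edgeR's quasi-likelihood test with Benjamini-Hochberg adjustment over all 16126 genes, 0 of 81 members passed an adjusted p of 0.05 in the comparison of 24 h with sedentary (0% of all genes passed), and the smallest adjusted p was 0.434. At an unadjusted p under 0.05 there was 1 member (Rpl22l1) against 8.92% of all genes. DESeq2 gave 0 members past the adjusted threshold and 1 unadjusted (9.75% of all genes), and voom in limma 0 and 2 (13.9%). Higher means were found for 66 members (81 tested) and for 49% of all genes, and the groups did not overlap for 2 members, both higher (Rpl13 and Rpl3l), and for 7.21% of all genes. The median over all genes was -0.00458.

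For 1 wk the same test again gave 0 of 81 (0% of all genes), with a smallest adjusted p of 0.842. No member had an unadjusted p under 0.05, against 6.05% of all genes, while DESeq2 had 1 (6.44% of all genes) and voom, which weights libraries by their quality, 30 (14.7% of all genes), with 0 past the adjusted threshold in either. The 80 higher members compare with 51.1% of all genes, and no member's groups were without overlap, against 4.22% of all genes. Without 1 wk replicate 4 there were 45 members at an unadjusted p under 0.05 (10.96% of all genes in that fit) and 0 past the adjusted threshold.

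For 2 wk, 0 of 81 passed (0% of all genes) and the smallest adjusted p was 0.374. By edgeR 1 member (Rpl22l1) had an unadjusted p under 0.05, against 7.26% of all genes, by DESeq2 1 (7.94%) and by voom 2 (10.8%), and again 0 passed by either after adjustment. Higher means were found for 29 members and for 52.1% of all genes, and the groups did not overlap for 1 member (Rpl22l1, lower), against 4.91% of all genes. The 3 comparisons share their sedentary libraries and are not independent of each other.

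Between the durations, 1 wk against 24 h gave 0 members (0% of all genes) and 74 with a higher mean (54.4% of all genes), with a median of 0.0592. At an unadjusted p under 0.05 it had 0 members by edgeR (7.15% of all genes), 0 by DESeq2 (7.67%) and 4 by voom (9.62%). The median turned to -0.0441 without 1 wk replicate 3 and was 0.176 without 1 wk replicate 4. The 2 wk mice against 24 h gave 0 (0.0124% of all genes) and 2 with a higher mean (52.2%), with a median of -0.111. Only Rpl12 had an unadjusted p under 0.05 there by edgeR (9.61% of all genes), and DESeq2 had 1 (10.1%) and voom 3 (11.01%). The median was -0.0519 without 24 h replicate 3, -0.0334 without 2 wk replicate 2 and -0.168 without 2 wk replicate 1. The widest gap was 2 wk against 1 wk, with 80 of 81 members lower (1 higher, against 52.3% of all genes), a median of -0.168 and yet 0 past the adjusted threshold (0% of all genes). Unadjusted, 2 members had a p under 0.05 by edgeR (4.58% of all genes), 2 by DESeq2 (4.9%) and 38 by voom (14.4%). Without 1 wk replicate 4 it was 69 by edgeR (17.1% of all genes in that fit), with a median of -0.295. The median was -0.0579 without 1 wk replicate 3 and -0.0905 without 2 wk replicate 2. In the test of all 4 groups together 0 members passed (0.0124% of all genes), and Rpl22l1 and Rpl12 had an unadjusted p under 0.05 (8.73% of all genes), as did 2 members by DESeq2 (10.5%).

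For the 2 subunits side by side, at 24 h the median log2 fold change was 0.0686 over 49 large-subunit genes, 39 of them higher, and 0.0571 over 32 small-subunit genes, 27 of them higher. At 1 wk the medians were 0.116 (48 higher) and 0.113 (32 higher). At 2 wk they were -0.0251 (20 higher) and -0.0511 (9 higher). The gaps between the medians, large minus small, were 0.0115, 0.00319 and 0.0261, and no test of them was made.

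Other short genes moved the same way from library to library. Ribosomal protein mRNAs are short, and 1023 other protein-coding genes with models under 1000 bases had medians of -0.061, -0.017, 0.157 and 0.103 in 24 h replicates 1 to 4, of 0.060, 0.176, 0.315 and -0.242 at 1 wk and of 0.045, -0.271, 0.023 and -0.049 at 2 wk. Their sign matched that of the members in 15 of 16 libraries. Genes with models over 4000 bases (3926) lay opposite in the libraries that stood apart, at -0.240 in 1 wk replicate 3, 0.200 in 1 wk replicate 4 and 0.222 in 2 wk replicate 2. With the difference between short and long genes as a covariate, an alternative chosen after seeing the data, the members' medians were 0.000695 at 24 h, 0.0122 at 1 wk and 0.0416 at 2 wk. What set this difference between libraries was not tested.

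Symbols alone also chose 77 nuclear genes named as mitochondrial ribosomal proteins, some of them among the short genes above. A symbol does not show that a protein belongs to that ribosome. The 77 genes had medians close to those of the cytosolic set. Their medians were 0.0682 at 24 h (62 higher), 0.121 at 1 wk (72 higher) and -0.0394 at 2 wk (24 higher), with 0 past the adjusted threshold and 2, 1 and 0 at an unadjusted p under 0.05 (all genes: 49, 51.1 and 52.1% higher and 8.92, 6.05 and 7.26% at that p). By library their median was 0.326 in 1 wk replicate 3, -0.202 in 1 wk replicate 4 and -0.266 in 2 wk replicate 2. Mrps36, on the list by its symbol alone, averaged 27.6 ± 1.63 CPM in sedentary and 33.1 ± 3.12 in 24 h libraries (SD, n = 4). Its log2 fold change was 0.26 ± 0.10 (SE) with an adjusted p of 0.480 by edgeR's quasi-likelihood test.

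**Figure D3:**
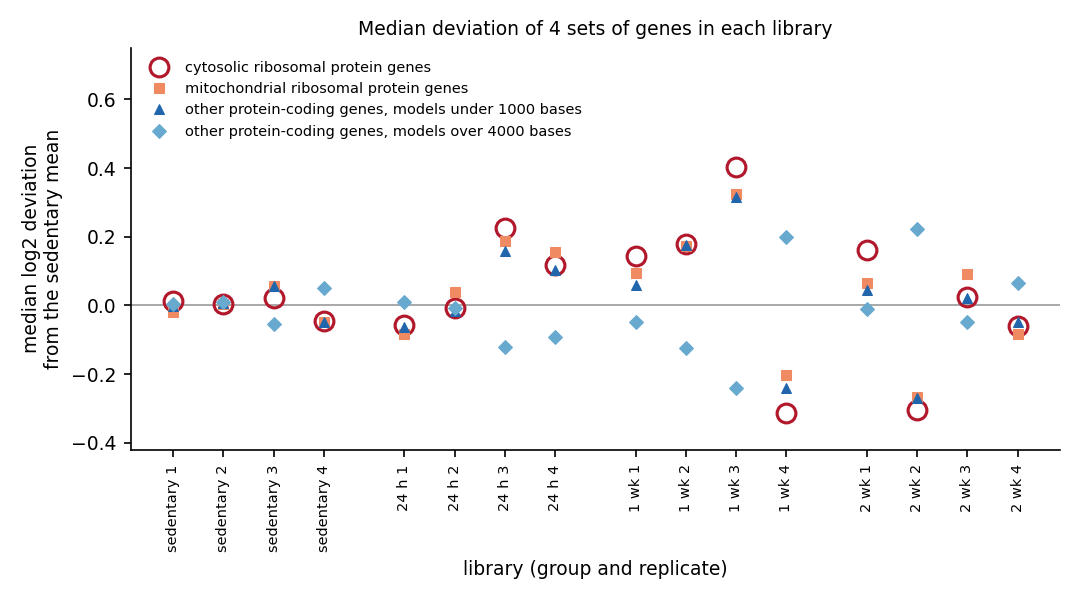
Median log2 deviation from the sedentary mean (y axis) in each library (x axis) for the cytosolic ribosomal protein genes, the mitochondrial ones, and other protein-coding genes with models under 1000 or over 4000 bases. The first 3 sets lie close together, reaching 0.402, 0.326 and 0.315 in 1 wk replicate 3, while the long genes lie at -0.240 there.

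Members differed in how far they followed this movement. Over the 16 libraries the SD of log2 CPM was 0.395 for Rpl3l and 0.357 for Rpl22l1, both with under 1000 counts in some library. Among the other 79 tested members it was 0.193 in the median. The median over all genes was 0.218, but these include genes with few counts, so the values are not of like sets. The steadiest of the 79 were Rpl3, at the peptidyl transferase centre, with 0.116, Rpl29 with 0.117, Rpl10, a late-joining protein of the large subunit, with 0.121, and Rpl4 with 0.125. The widest of the 79 were Rps14, a protein of the small subunit's platform, with 0.320, Rpl41 with 0.275, Rps27 with 0.274 and Rpl12 with 0.273. Across these 79 members, SD and coding length had a Spearman rho of -0.499, a description across genes that share the same libraries. The 10 least variable members had a median coding length of 795 bases and the 10 most variable 474.

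Members were also set against the median member of the same library, which removes the common movement only for those that follow it in full. The SD over the 16 libraries was then 0.357 for Rpl3l, 0.305 for Rpl22l1, 0.198 for Rps14, 0.174 for Rps7 and 0.167 for Rpl12. At the low end it was 0.0317 for Rps9, 0.0381 for Rps19 and 0.0464 for Rpsa. A few members, picked here after their values were seen, then had groups without overlap. Rpl13, a large-subunit protein needed for early assembly, lay between -0.0415 and 0.0430 in sedentary libraries, between 0.0684 and 0.151 at 24 h and between 0.0673 and 0.133 at 1 wk. Rpl22 lay between -0.0935 and 0.101 in sedentary libraries and between -0.291 and -0.110 at 24 h. Rpl35a lay between -0.0497 and 0.0755 in sedentary libraries and between -0.158 and -0.117 at 24 h. For Rpl29 it was the 2 wk libraries, at 0.133 to 0.379, that lay above the sedentary range of -0.0876 to 0.0756. In 2 wk replicate 2 Rpl29 itself was 0.024 from its sedentary mean, while the median member was at -0.305. These differences are of one gene against others in a library and were given no test.

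The P stalk, a flexible arm of the large subunit made of Rplp0 with Rplp1 and Rplp2, recruits elongation factors. Rplp0 was at 962, 976, 1074 and 956 CPM in sedentary replicates 1 to 4 and at 936, 999, 1154 and 1025 at 24 h. It was at 973, 1105, 1282 and 804 CPM at 1 wk and at 962, 790, 1117 and 903 at 2 wk. The groups overlapped throughout, as did those of its partners. The largest of the stalk's 9 log2 fold changes was that of Rplp1 at 1 wk, 0.17 ± 0.13 (SE, adjusted p = 0.932 by edgeR's quasi-likelihood test).

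Rpl5 and Rpl11 carry a small ribosomal RNA into the large subunit and, when they are in excess, bind Mdm2, the inhibitor of p53. Rpl11 averaged 457 ± 35.2 CPM in sedentary libraries, 451 ± 57.8 at 24 h, 491 ± 128 at 1 wk and 413 ± 62.6 at 2 wk (SD, n = 4). Rpl5 averaged 350.0 ± 24.0, 342 ± 36.6, 360.2 ± 72.1 and 322 ± 27.7 CPM. Neither gene differed beyond its spread, with log2 fold changes against sedentary between -0.15 and 0.10.

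Rpl22l1 had a lower mean in each exercised group, also at 24 h and 1 wk, where most members had higher means, and the smallest p of all members in the test over all groups. None of its differences passed the threshold. It encodes a paralog of Rpl22, an RNA-binding large-subunit protein that is dispensable for the ribosome itself, and in mice Rpl22 is known to hold down Rpl22l1. Rpl22l1 lies at chr3:28805436-28807424 on the plus strand. Its level was 25.6, 29.2, 43.7 and 32.5 CPM in sedentary replicates 1 to 4 and 21.6, 20.1, 30.5 and 21.2 CPM at 24 h. It was 23.3, 32.8, 29.7 and 17.8 CPM at 1 wk and 20.8, 18.2, 23.7 and 21.8 CPM at 2 wk. All 2 wk libraries lay below all sedentary ones, whereas at 24 h and 1 wk some libraries overlapped them.

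The log2 fold change of Rpl22l1 was -0.49 ± 0.18 at 24 h (SE, unadjusted p = 0.0153, adjusted p = 0.434), -0.34 ± 0.18 at 1 wk (0.0801 and 0.881) and -0.63 ± 0.18 at 2 wk (0.00276 and 0.374) by edgeR's quasi-likelihood test. Leaving out single libraries gave -0.644 to -0.313 at 24 h, -0.473 to -0.161 at 1 wk and -0.733 to -0.462 at 2 wk. The smallest difference at 24 h and 1 wk was that without sedentary replicate 3, and without 1 wk replicate 4 the 1 wk value was -0.188. Taken against the median member of the same library, Rpl22l1 deviated by -0.331 to 0.407 in sedentary libraries and by -0.758 to -0.396 at 2 wk, without overlap. The sedentary replicate 3, at 43.7 CPM, widened the sedentary range.

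Rpl22 itself, at chr4:152325742-152334071 (plus strand), overlapped between the groups. It stood at 208, 202, 239 and 222 CPM in sedentary libraries and at 176, 174, 231 and 209 CPM at 24 h. At 1 wk it stood at 219, 252, 255 and 163 CPM, and at 2 wk between 171 and 212 CPM. The log2 fold changes were -0.14 ± 0.13, 0.03 ± 0.13 and -0.15 ± 0.13 (SE), with adjusted p of 0.786, 0.992 and 0.805 by edgeR's quasi-likelihood test. The 1 wk value took either sign when single libraries were left out (-0.0434 without 1 wk replicate 3, 0.157 without replicate 4), the 24 h value ran from -0.227 (without 24 h replicate 3) to -0.0868 (without replicate 2), and the 2 wk value was -0.0878 without 2 wk replicate 2. Per kilobase of model the sedentary mean was 460 ± 35.2 CPM for Rpl22 and 59.3 ± 14.2 CPM for Rpl22l1 (SD, n = 4), a level scale that depends on the annotated lengths.

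Rpl12, which lies at the base of the P stalk and is encoded at chr2:32961559-32965345 (plus strand), had its lowest libraries at 2 wk. It was at 274, 268, 283 and 250 CPM in sedentary libraries and at 245, 268, 330.3 and 290.3 CPM at 24 h. It was at 312, 299.8, 363 and 212 CPM at 1 wk and at 280.1, 209, 205 and 179.5 CPM at 2 wk. At 2 wk 3 libraries lay below the sedentary range and replicate 1 within it. The log2 fold change was -0.30 ± 0.15 against sedentary (SE, unadjusted p = 0.0543, adjusted p = 0.685) and -0.44 ± 0.15 against 1 wk (0.00687 and 0.868) by edgeR's quasi-likelihood test.

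Rpl41, the shortest protein of the ribosome, at chr10:128548114-128549305 (minus strand), had the highest level per kilobase of model, 1423 ± 32.1 CPM in sedentary libraries (SD, n = 4). Rplp1 (1214 ± 13.2) and Rps15 (1178 ± 41.1) followed. Rpl41 was at 627, 630.4, 629 and 601 CPM in sedentary libraries and at 623, 715, 797 and 763 CPM at 24 h. It was at 712, 777, 1058 and 505 CPM at 1 wk and at 631, 463, 649.7 and 599 CPM at 2 wk. Higher and lower libraries occurred side by side at 1 wk. The log2 fold changes were 0.22 ± 0.16, 0.29 ± 0.16 and -0.09 ± 0.16 (SE), with adjusted p of 0.719, 0.880 and 0.922 by edgeR's quasi-likelihood test. The 1 wk value was 0.0966 without 1 wk replicate 3 and 0.454 without replicate 4, and the 2 wk value was 0.00941 without 2 wk replicate 2.

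**Figure D4:**
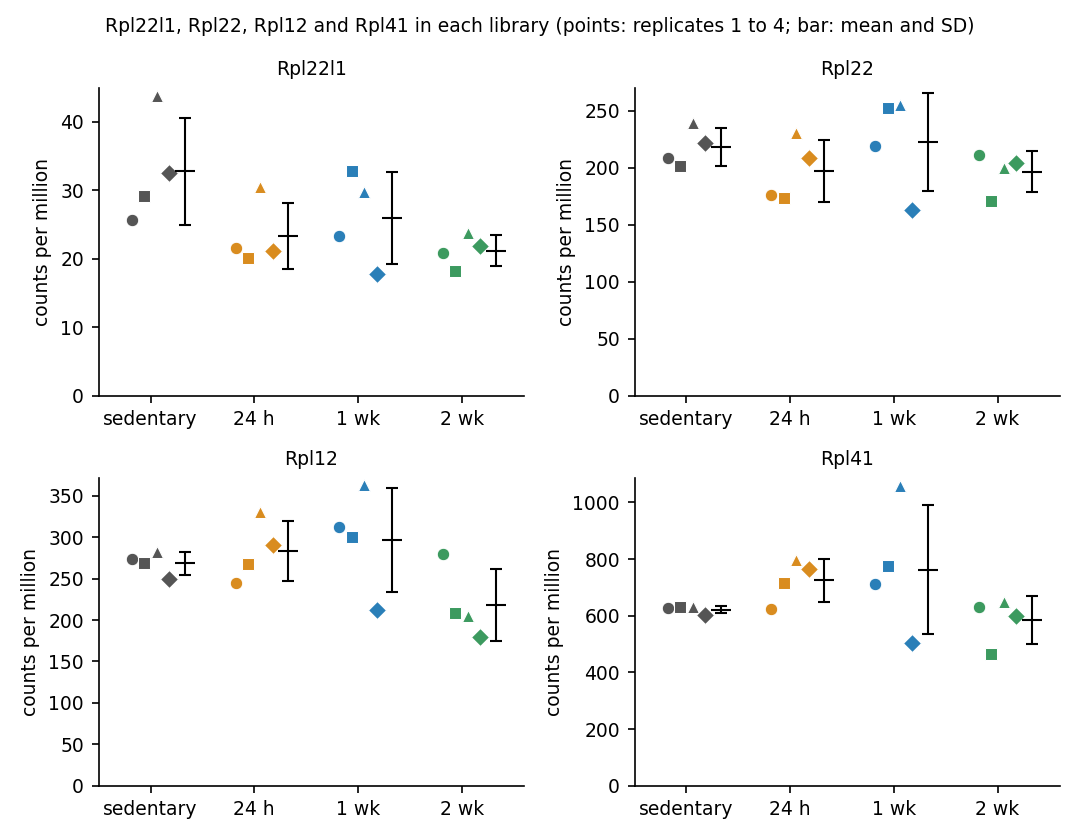
Rpl22l1, Rpl22, Rpl12 and Rpl41 in CPM (y axes, from 0) by group (x axes), 1 point per library with the mean and SD (n = 4). The 2 wk libraries of Rpl22l1 (18.2 to 23.7) all lie below the sedentary ones (25.6 to 43.7); in the other 3 panels the groups overlap.

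Among the other large-subunit members, Rpl13 (chr8:123102350-123105244, plus strand) was at 299.6, 303.5, 304.6 and 283.1 CPM in sedentary libraries and at 308.1, 323.1, 357.4 and 343.1 CPM at 24 h. All 24 h libraries were higher than all sedentary ones, with a log2 fold change of 0.16 ± 0.11 (SE, adjusted p = 0.716 by edgeR's quasi-likelihood test). Rpl10a, of the L1 stalk near the tRNA exit, was higher at 24 h by 0.16 ± 0.11 and at 1 wk by 0.21 ± 0.11 (0.127 without 1 wk replicate 3), with adjusted p of 0.681 and 0.850 by the same test. Rpl29 was the member with the smallest p at 1 wk, 0.18 ± 0.09 (adjusted p = 0.842), and at 2 wk had the highest value, 0.13 ± 0.09 (adjusted p = 0.739, edgeR), which was 0.0743 without 2 wk replicate 1. Its libraries ran from 119.6 to 133 CPM in sedentary, 125 to 143 at 24 h, 124 to 159 at 1 wk and 128 to 154 CPM at 2 wk.

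Further large-subunit genes were named for their small p. Rpl28 was higher at 1 wk by 0.20 ± 0.12 and Rpl35, next to the nascent chain exit, by 0.22 ± 0.13 (SE), and without 1 wk replicate 3 by 0.105 and 0.11 (Rpl35 by 0.36 without replicate 4). At 2 wk Rpl37 differed by 0.11 ± 0.12, Rpl7l1 by 0.07 ± 0.10, Rpl14 by 0.05 ± 0.12 and Rpl28 by 0.05 ± 0.12. Leaving out single libraries gave ranges of -0.0048 to 0.183, 0.00467 to 0.112, -0.0416 to 0.109 and -0.0411 to 0.115, the lowest without 2 wk replicate 1 except for Rpl7l1, where it was without replicate 3. Rpl35a, known from Diamond-Blackfan anaemia, was at -0.19 ± 0.15 at 2 wk (-0.0984 without replicate 2), and Rpl30 at -0.07 ± 0.11 at 24 h (-0.0221 without replicate 2 and -0.113 without replicate 3). Rpl32, often used as a reference gene, averaged 417 ± 17.7 CPM in sedentary and 435 ± 41.4, 466 ± 111 and 407 ± 63.4 in 24 h, 1 wk and 2 wk libraries. Rpl13a, the protein of an interferon-regulated translational silencing complex and a common reference gene, averaged 80.9 ± 9.11, 92.7 ± 17.3, 90.2 ± 21.4 and 80.1 ± 18.4 CPM.

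In the small subunit, Rps6, the substrate of S6 kinase downstream of mTORC1, was at 199, 198, 178 and 179 CPM in sedentary replicates 1 to 4 and at 201, 194, 224 and 213 CPM at 24 h. It was at 222, 196, 237 and 167 CPM at 1 wk and at 220.3, 169, 185 and 186 CPM at 2 wk. Ranges overlapped in each comparison, and the log2 fold changes were 0.14 ± 0.10, 0.12 ± 0.10 and 0.01 ± 0.10 (SE), with adjusted p of 0.730, 0.935 and 0.985 by edgeR's quasi-likelihood test. Rps6 mRNA says nothing of the phosphorylation of its protein.

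Rpsa, a small-subunit protein also known as the laminin receptor, averaged 639 ± 15.1 CPM in sedentary libraries and 663 ± 74.7, 695 ± 142 and 604 ± 94.0 in the 3 exercised groups in order of duration. Rps28 had the largest log2 fold change of the small subunit at 24 h, 0.21 ± 0.13 (adjusted p = 0.652), and Rps7 and Rps27a, which is made as a fusion with ubiquitin, were lower there by -0.11 ± 0.17 and -0.10 ± 0.14 (adjusted p = 0.890 and 0.877, edgeR). At 2 wk Rps7 was at -0.20 ± 0.17 (adjusted p = 0.801, edgeR). The 24 h values of Rps7 and Rps27a were -0.0286 and -0.0293 without sedentary replicate 3 and -0.207 for both without 24 h replicate 3, and the 2 wk value of Rps7 ran from -0.352 to -0.103, without 2 wk replicates 3 and 2. The sedentary libraries of Rps7 ran from 271 to 349.8 CPM, the highest being replicate 3, and those of Rps28 from 99.4 to 120.1, the lowest being replicate 3.

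The groups of Rps27 and its paralog, of the X-linked members and of Rpl7 and its paralog overlapped in each comparison with sedentary. Rps27 averaged 345 ± 34.0, 351 ± 65.0, 371 ± 103 and 311 ± 57.2 CPM in sedentary, 24 h, 1 wk and 2 wk libraries, and Rps27l, its p53-responsive paralog, 176 ± 13.8, 179.9 ± 21.7, 191 ± 45.4 and 167 ± 26.4. The X-linked Rpl10 averaged 393 ± 18.1 CPM in sedentary libraries, Rps4x 369 ± 23.4 and Rpl39 101 ± 6.49, and their log2 fold changes at 24 h were 0.06 ± 0.10, 0.04 ± 0.10 and -0.06 ± 0.15. Rpl7 averaged 409 ± 2.05 CPM and Rpl7l1, which acts in assembly, 98.01 ± 3.49 in sedentary libraries.

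The testis-enriched autosomal copies were all but silent. Rpl10l had 0 counts in all 16 libraries, which allows at most 0.0449 to 0.0754 CPM per library at 3 counts, and Rpl39l had 4 counts, in 2 libraries. The testis markers Prm1, Prm2 and Tnp1 were at 0 counts.

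Rpl3l, the form of Rpl3 that replaces it in heart and skeletal muscle, was low but detected in each library. It stood at 3.96, 4.40, 3.04 and 3.14 CPM in sedentary libraries and at 4.86, 4.93, 4.63 and 4.90 CPM at 24 h. At 1 wk it stood at 3.84, 3.65, 5.97 and 4.82 CPM and at 2 wk at 6.20, 2.76, 3.91 and 2.26 CPM. All 24 h libraries were above all sedentary ones, while the other groups overlapped them. The log2 fold change at 24 h was 0.41 ± 0.24 (SE, adjusted p = 0.636 by edgeR's quasi-likelihood test). Skeletal muscle markers were at or near 0: Acta1 had 23 counts over all libraries, Ckm 6, Myh1 41 and Myh4 1, and no library's level of any of them exceeded 0.124 CPM. On these few counts, their sum was 0.0992 to 0.168 CPM at 24 h and 0.0523 to 0.0890 CPM in sedentary libraries, without overlap. The part of that sum in the Rpl3l values was not tested. Rpl3 averaged 334 ± 10.8 CPM in the same sedentary libraries.

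Of the ribosome genes outside the naming rule that are given here, a retrogene had the largest differences. Fau, which encodes Rps30 as a fusion protein, was higher by 0.13 ± 0.14 at 24 h and 0.19 ± 0.14 at 1 wk, and Rack1, a scaffold on the small subunit, differed by 0.00 ± 0.14 and 0.04 ± 0.14 (log2 fold change ± SE). Rps27rt, an intronless copy of Rps27, averaged 0.897 ± 0.160 CPM in sedentary and 1.70 ± 0.456 in 24 h libraries (SD, n = 4), a log2 fold change of 0.92 ± 0.26 (unadjusted p = 0.00212, adjusted p = 0.263 by edgeR's quasi-likelihood test). For Rps27, the gene it was copied from, the log2 fold change was 0.02 ± 0.17.

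Named pseudogenes of the members, which are processed copies of their mRNAs, took more counts relative to the members in every 24 h and 1 wk library than in any sedentary one. Of 300 such pseudogenes, 38 passed the filter, with a median of 0.381 CPM in sedentary libraries. Their median log2 fold change was 0.444 at 24 h (31 higher), 0.528 at 1 wk (33 higher) and 0.0965 at 2 wk (26 higher, against 49, 51.1 and 52.1% of all genes). Unadjusted, 14, 13 and 1 had a p under 0.05 by edgeR (8.92, 6.05 and 7.26% of all genes), and 0 passed after adjustment in any of the 3. Relative to 10000 counts of the members, all 300 pseudogenes together had 16.4, 18.7, 18.3 and 16.2 counts in sedentary replicates 1 to 4 and 21.4, 23.9, 20.9 and 20.3 at 24 h. The ratio was 22.2, 20.3, 21.1 and 20.4 at 1 wk and 18.1, 20.4, 19.2 and 20.7 at 2 wk. All 24 h and 1 wk libraries were above all sedentary ones, and at 2 wk 3 of 4 were.

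This ratio, which is taken to the members' own counts, was 21.1 and 20.4 in 1 wk replicates 3 and 4, at opposite ends for the members. The level of the pseudogenes itself moved with the members between these libraries. The median log2 deviation of the 38 tested pseudogenes was 0.762 in replicate 3 and -0.0167 in replicate 4. For the members it was 0.402 and -0.313. The single pseudogene with the smallest p, Rpl28-ps1, averaged 1.43 ± 0.280 CPM in sedentary and 2.67 ± 0.418 at 24 h, a log2 fold change of 0.90 ± 0.17 (adjusted p = 0.0972 by edgeR's quasi-likelihood test), against 0.14 ± 0.12 for Rpl28. Pseudogenes are near-identical to their parents and how the authors assigned reads that fit both is not stated, so counts on either are uncertain. Whether these reads came from the pseudogenes was not tested.

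**Figure D5:**
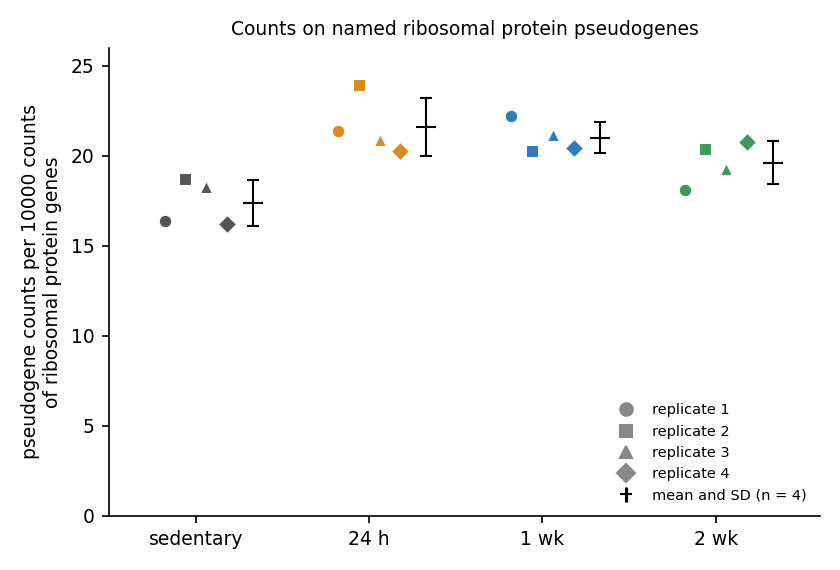
Counts on the 300 named ribosomal protein pseudogenes per 10000 counts on the 83 ribosomal protein genes (y axis, from 0) by group (x axis), 1 point per library with the mean and SD (n = 4). The sedentary libraries lie between 16.2 and 18.7, the 24 h libraries between 20.3 and 23.9 and the 1 wk libraries between 20.3 and 22.2.

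The genes that make, regulate or sense ribosomes were described from lists chosen with earlier results of these data known. None had a member past the adjusted threshold by edgeR in any comparison with sedentary. Their counts stand against all genes, of which 49, 51.1 and 52.1% had a higher mean and 8.92, 6.05 and 7.26% an unadjusted p under 0.05 at 24 h, 1 wk and 2 wk. Of 35 genes of ribosome assembly and RNA polymerase I, which build and transcribe pre-ribosomes, 33 were higher at 24 h, 25 at 1 wk and 27 at 2 wk, with medians of 0.110, 0.0699 and 0.0674 and 6, 2 and 4 at an unadjusted p under 0.05. Nop2, a nucleolar RNA methyltransferase, averaged 29.7 ± 1.92 CPM in sedentary and 35.8 ± 3.49 at 24 h (log2 fold change 0.27 ± 0.10, adjusted p = 0.391 by edgeR's quasi-likelihood test). Rrs1, which brings Rpl5 and Rpl11 into the assembling subunit, was higher by 0.34 ± 0.12 at both 1 wk and 2 wk (adjusted p = 0.658 and 0.513, edgeR).

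A list of 22 translation factors and other mRNAs described as having the TOP motif did not share the members' medians. Their medians were -0.0181 at 24 h, 0.0169 at 1 wk and 0.0194 at 2 wk, with 9, 14 and 11 higher and 1, 0 and 0 at an unadjusted p under 0.05. The start sites and model lengths of these genes were not compared with those of the members. Eif3e, a subunit of an initiation factor, was at -0.20 ± 0.09 at 24 h (adjusted p = 0.545, edgeR). The host genes of small nucleolar RNAs, several of which also carry the motif, were lower for 8 of 8 at 24 h with a median of -0.187 (medians of -0.0466 and -0.109 at 1 wk and 2 wk), and 0 had an unadjusted p under 0.05 at any time.

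Regulators of mTORC1 and translation numbered 23, of which 16, 17 and 19 were higher in order of duration, with medians of 0.0317, 0.0505 and 0.0995 and 2, 1 and 2 at an unadjusted p under 0.05. Eif4ebp1, the translational repressor that mTORC1 phosphorylates, averaged 15.5 ± 1.37 CPM in sedentary and 19.0 ± 2.26 at 24 h (log2 fold change 0.30 ± 0.11, adjusted p = 0.416, edgeR), and for Sesn2, an inhibitor of mTORC1 in stress, the log2 fold change was -0.39 ± 0.16 (adjusted p = 0.496, edgeR). Of 11 targets of p53, 9, 8 and 9 were higher, with medians of 0.185, 0.103 and 0.0893 and 3, 0 and 2 at an unadjusted p under 0.05. The 2 at 2 wk went opposite ways, Zmat3 at 0.29 ± 0.11 and Bbc3 at -0.38 ± 0.16 (log2 fold change ± SE). Aen, a nuclease that p53 induces, averaged 19.0 ± 0.361 CPM in sedentary and 25.2 ± 3.29 at 24 h (0.41 ± 0.13, adjusted p = 0.321, edgeR).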

How the data were processed

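The authors deposited a table of unnormalized read counts, 1 row per Ensembl gene. Per the submitters' processing notes, FastQC 0.10.1 and HTSeq 0.10.0 were used on GRCm38 (mm10). Not given in the sources used here were the aligner, annotation release, strand setting and treatment of reads that fit several genes. Of the columns, 16 were joined to samples by name and 8 that match no sample were not used.

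Symbols, positions and lengths were taken by Ensembl ID from GENCODE M21, which named 52081 of 55414 IDs (94.0%, with 99.4% of counts). Model length is that of the shortest complete coding model of the best rank, an approximation for genes with unlike isoforms. One edgeR 4.0.16 fit in R 4.3.3 held all 16 libraries with group only (filterByExpr, TMM, robust quasi-likelihood F-test, Benjamini-Hochberg adjustment over 16126 genes, threshold 0.05). Log2 deviations used a prior count of 2, CPM are TMM-scaled, and shares are of unscaled counts. The error printed after ± is the SD of CPM or shares between libraries, or the SE of a log2 fold change. DESeq2 1.42.0, voom with quality weights in limma 3.58.1, other scalings and filters, the replicate block, 2-group fits and leaving out each library were alternatives. The scripts were tested on simulated data. No 2 libraries of a group agreed within sampling noise (chi-square per degree of freedom at least 7.88).

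The members and lists were chosen with earlier results of these data known. Named were, per comparison with sedentary, the 5 members of smallest p in each direction, the 5 of smallest p over all groups, the ends of the scales of level and spread, and a set of textbook members and paralogs, of which Rps4l was not analysed here. From each list 3 genes of small p were eligible. Describing the pseudogenes as a ratio to the members, and Rpl28-ps1 and Rps27rt beside their parents, was decided after the values were seen. A ribosome gene outside the naming rule is not reported here.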

Additional observations from a re-analysis of the deposited data

Results flagged for a closer look

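Of 148 groups of 4 library values examined (the levels of the named members, their summed share and their median deviation), 4 held a library whose gap to its nearest neighbour took up more of the group's range than Dixon's 95% limit, which chance passes in about 1 group in 20. Rpl41 was at 600.8 CPM in sedentary replicate 4, with the other sedentary libraries between 626.9 and 630.4. Rpl7l1 was at 103.2 CPM in sedentary replicate 3, against 95.65 to 96.8 in the others. Rpl22l1 was at 30.5 CPM in 24 h replicate 3, against 20.08 to 21.61, so that without this library the 24 h and sedentary groups of Rpl22l1 would not overlap. Rpl10 was at 448.8 CPM in 2 wk replicate 1, against 373.8 to 384.7.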

How the results depend on the processing

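Across 139 fits under 27 settings, edgeR, DESeq2 and voom called 0 members, and the smallest adjusted p of any member was 0.119. Leaving out single libraries gave medians of 0.0199 to 0.106 at 24 h, 0.0153 to 0.246 at 1 wk and -0.106 to 0.0403 at 2 wk, and 0 members called. The gap between large and small subunit was -0.00319 to 0.0181, -5.78e-05 to 0.0344 and 0.00854 to 0.0271 in that order. The members' share was 2.442 to 2.505% in sedentary, 2.531 to 2.67% in 24 h, 2.479 to 2.849% in 1 wk and 2.319 to 2.507% in 2 wk libraries. Over nuclear genes only, the mean share was 2.578% in sedentary, 2.688% in 24 h, 2.739% in 1 wk and 2.478% in 2 wk libraries, since mitochondrial counts left the denominator.

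The replicate block gave medians of 0.0644, 0.105 and -0.0404 and 0 members called. The numbers do not pair the libraries: over 24 pairs with the same number the correlation of deviations ran from -0.239 to 0.375, with 8 above 0.1, and 5 libraries correlated best with their own number.

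With the short-gene difference as a covariate, chosen after seeing the data, Rpl22 at 1 wk was at -0.0808 and Rpl41 at 2 wk at 0.0181, both turned in sign. Leaving out single libraries also turned Rpl12 at 24 h (-0.00506 to 0.141), Rpl22 at 1 wk (-0.0434 to 0.157), and at 2 wk Rpl14 (-0.0416 to 0.109), Rpl28 (-0.0411 to 0.115), Rpl37 (-0.0048 to 0.183) and Rpl41 (-0.14 to 0.00941). The cause was not tested. Of the single-gene values 530 kept their direction and call and 10 turned.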
